A study of Mus musculus with 9 samples.

Results

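The genes described here encode the subunits, assembly chaperones, activators and inhibitor of the proteasome. Members were the protein-coding genes whose GRCm38 symbol begins with Psm, followed by a class letter from a to g and a number, with an a or b ending allowed. There were 49 of them among 54532 Ensembl identifiers and 21995 protein-coding genes in the count table. Psmb8, Psmb9, Psmb10, Psme1 and Psme2 were set apart as 5 immunoproteasome genes, and the other 44 are called constitutive. Of the 49, 47 had enough reads to be tested. Psma8 and Psmb11, copies known from testis and thymus, had at most 1 count in any library, under the limit of 3 counts that a count of 0 allows, and were not tested.

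The proteasome degrades proteins tagged with ubiquitin. Its barrel, the core particle, has outer rings of alpha subunits (Psma genes) and inner rings of beta subunits (Psmb genes), of which Psmb5, Psmb6 and Psmb7 cut peptide bonds. A regulatory particle binds ubiquitin chains and feeds substrates into the barrel. Its base holds the ATPases (Psmc genes), Psmd1 and Psmd2, and its lid most other Psmd genes. Psmd5, Psmd9 and Psmd10 are assembly chaperones. Under interferon, newly made barrels take up Psmb8, Psmb9 and Psmb10 in place of Psmb5, Psmb6 and Psmb7, and the PA28 activator of Psme1 and Psme2 can cap them; such immunoproteasomes are known for making peptides for MHC class I.

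The libraries came from bulk RNA of neutrophils that had been isolated from bone marrow (wild type C57/B6 mice) and cultured for 12 h in 0.5% fetal bovine serum (FBS). There were 3 groups of 3 biological replicates: neutrophils alone, neutrophils co-cultured with PyMT-M cells, and neutrophils co-cultured with PyMT-N cells. PyMT stands for polyoma middle T antigen, an oncogene behind a widely used mouse mammary cancer model; the sources used here do not say what M and N stand for. Neutrophils of both co-cultures were sorted by flow cytometry, and for the neutrophils alone no sort is named, so co-culture and sorting cannot be told apart against that group. Age and sex of the mice, and whether each replicate was 1 mouse or a pool, are not given; p-values then measure the spread between these libraries.

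Libraries held 1641049 to 4524563 counts, with a count for 11814 to 17008 genes. Alone replicate 3 was the shallowest and stood apart: 1.75% of its counts were mitochondrial messenger RNA, against 0.180% to 0.769% in the other 8. Neutrophil markers (15 genes, among them S100a8 and S100a9) summed to 27788 to 40460 CPM (counts scaled to library totals) alone, 19909 to 24247 with PyMT-M and 17064 to 20405 with PyMT-N, none at 0 in any group. Markers of other cells also moved with the groups. The 18 epithelial markers summed to 4.27 to 18.9 CPM alone, 79.9 to 109 with PyMT-M and 2286 to 3225 with PyMT-N, with 10, 12 and 17 of 18 genes detected; Epcam was at 0 alone and Krt5 at 0 in every group. The 21 mesenchymal markers summed to 182 to 216, 1617 to 1811 and 1545 to 1973 CPM in that order, with 15, 16 and 15 genes detected and Lum at 0 in every group. The 8 B cell markers summed to 496 to 1122, 91.8 to 146 and 17.2 to 22.0 CPM, with 8, 7 and 8 genes detected, and the 8 dendritic cell markers to 273 to 592, 20.8 to 28.0 and 36.7 to 49.3 CPM, with 7 genes detected in each group. The highest B cell and dendritic sums were both in alone replicate 3. The 12 monocyte and macrophage markers summed to 991 to 1372, 543 to 800 and 656 to 809 CPM, with 11, 12 and 12 detected, and the 8 T and NK cell markers to at most 6.30 CPM, with Cd3e at 0 throughout. Against alone, the sums of every list but that of T and NK cells lay apart from both co-cultures. Between the co-cultures, epithelial, B cell and dendritic sums lay apart. Neutrophil, mesenchymal, monocyte and macrophage, and T and NK cell sums overlapped there. The part of these lists in the proteasome results was not tested.

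Promoter windows are shown for the immunoproteasome genes with the largest change (Psmb8, Psmb9), for the activator gene with an interferon-type motif (Psme1) and, for contrast, for the constitutive subunit that Psmb8 replaces (Psmb5). Sequences are from RefSeq on GRCm38.p6, 5′ to 3′ on the gene's strand, 280 bases from 250 before the annotated start. Capitals mark matches, on either strand, to AANNGAAA (interferon regulatory factors), TTCNNNGAA (gamma-activated site) or TGACNNNGC (antioxidant response type).
Psmb8, chr17:34197945-34198224, plus strand: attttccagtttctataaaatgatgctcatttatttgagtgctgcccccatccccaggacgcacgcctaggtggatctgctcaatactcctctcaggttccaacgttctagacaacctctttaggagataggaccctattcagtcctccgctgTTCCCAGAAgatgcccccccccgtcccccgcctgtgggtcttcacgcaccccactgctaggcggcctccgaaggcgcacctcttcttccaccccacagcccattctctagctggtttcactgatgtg
Psmb9, chr17:34187301-34187580, minus strand: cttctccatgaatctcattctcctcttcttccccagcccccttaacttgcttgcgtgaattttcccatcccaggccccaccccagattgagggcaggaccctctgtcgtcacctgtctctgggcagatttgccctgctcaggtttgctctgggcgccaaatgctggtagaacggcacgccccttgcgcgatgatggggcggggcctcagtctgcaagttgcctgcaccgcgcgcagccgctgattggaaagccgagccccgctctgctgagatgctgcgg
Psme1, chr14:55578244-55578523, plus strand: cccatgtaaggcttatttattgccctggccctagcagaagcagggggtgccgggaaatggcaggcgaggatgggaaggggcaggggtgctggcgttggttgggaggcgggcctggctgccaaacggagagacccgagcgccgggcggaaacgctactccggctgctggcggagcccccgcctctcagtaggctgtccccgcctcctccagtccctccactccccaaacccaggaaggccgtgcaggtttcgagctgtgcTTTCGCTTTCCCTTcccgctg
Psmb5, chr14:54617966-54618245, minus strand: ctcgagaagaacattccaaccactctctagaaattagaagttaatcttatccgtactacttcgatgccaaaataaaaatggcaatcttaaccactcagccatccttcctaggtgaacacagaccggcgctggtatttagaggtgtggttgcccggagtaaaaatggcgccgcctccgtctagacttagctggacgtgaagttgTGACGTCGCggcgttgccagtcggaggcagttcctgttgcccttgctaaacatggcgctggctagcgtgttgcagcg
With the start base numbered 0, the Psmb8 match spans -97 to -89, and the capitals in Psme1 are a pair of overlapping matches from 9 to 22 bases past the start. The Psmb5 match spans -47 to -39. Psmb9 has no match in its window. Of the members, 41 had a window of 300 bases in the RefSeq table. AANNGAAA was in 1 of 5 immunoproteasome genes (Psme1) and 12 of 36 constitutive genes, against 23.9% of all 32851 windows. TTCNNNGAA was in 1 of 5 (Psmb8) and 2 of 36 (Psmd2 and Psmg1), against 8.30%. TGACNNNGC was in 0 of 5 and 6 of 36 (Psmb5, Psmb6, Psmc6, Psmd9, Psmd12 and Psme4), against 12.4%. The RefSeq starts of Psmb8, Psmb9 and Psme1 lie 474, 434 and 371 bases inside the outermost end of the GENCODE gene, so a longer transcript would have another promoter.

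Neutrophils with PyMT-N cells were first compared with neutrophils alone for immunoproteasome transcripts. Psmb8 and Psmb9 rose, by 2.89-fold and 1.98-fold. Psmb10, Psme1 and Psme2 did not pass the test with all 9 libraries and did so without alone replicate 3. Differences were tested with edgeR's quasi-likelihood F test on counts, fitted over all 9 libraries and 12012 genes; a gene is called where the Benjamini-Hochberg adjusted p is under 0.05. Levels are normalised CPM, counts scaled to the library size after TMM normalisation, which compare a gene between libraries. In bulk RNA, a change in the share of a cell type and a change in RNA per cell cannot be told apart.

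Psmb8 (ENSMUSG00000024338, chr17:34197721-34201454, plus strand) encodes the inducible chymotrypsin-like subunit. It stood at 29.9, 34.7 and 33.9 normalised CPM in alone replicates 1 to 3 and at 108, 88.4 and 88.9 in PyMT-N replicates 1 to 3. Every PyMT-N library was above every library alone, with a log2 fold change of 1.53 ± 0.23 (SE, edgeR adjusted p = 5.79e-05). Psmb9 (ENSMUSG00000096727, chr17:34181987-34187764, minus strand), its neighbour in the MHC region, encodes the inducible subunit in the place of Psmb6. It stood at 28.5, 34.4 and 22.6 normalised CPM alone and 66.6, 62.3 and 45.8 with PyMT-N, again without overlap. Its log2 fold change was 0.99 ± 0.27 (SE, edgeR adjusted p = 0.00609). Both calls held with each library left out in turn.

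Psmb10 (ENSMUSG00000031897, chr8:105935735-105938444, minus strand) encodes the inducible subunit in the place of Psmb7. It stood at 16.5, 15.3 and 74.7 normalised CPM alone, from 37, 41 and 99 counts, and at 29.0, 34.2 and 23.5 with PyMT-N. Alone replicate 3 lay above all PyMT-N libraries and the other alone replicates lay below them. The log2 fold change was -0.12 ± 0.47 (SE, edgeR adjusted p = 0.847), and 0.86 (adjusted p = 0.0274) without alone replicate 3. Psme1 (ENSMUSG00000022216, chr14:55578123-55581529, plus strand), PA28 alpha, stood at 58.8, 87.4 and 120 normalised CPM alone and 127, 117 and 112 with PyMT-N, so that the groups overlapped through the same library. Its log2 fold change was 0.45 ± 0.23 (SE, edgeR adjusted p = 0.119), and 0.69 (adjusted p = 0.00513) without it. Psme2 (ENSMUSG00000079197, chr14:55587441-55591113, minus strand), PA28 beta, stood at 47.2, 78.5 and 67.9 alone and 97.9, 101 and 85.4 with PyMT-N. These groups did not overlap, yet the log2 fold change of 0.55 ± 0.25 (SE, edgeR adjusted p = 0.0788) missed the threshold; it was 0.58 (adjusted p = 0.0464) without alone replicate 3, and the call was also gained without alone replicate 2.

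In all, 2 of 5 immunoproteasome genes rose with PyMT-N against alone and 0 fell, where 29.4% of all tested genes rose and 23.6% fell. Their median log2 fold change was 0.55, beside 0.12 over all tested genes. Without alone replicate 3, 5 of 5 rose, where 31.1% of all genes rose and 26.0% fell, with medians of 0.86 and 0.15. The highest Psmb10 and Psme1 levels alone were in the library with the most mitochondrial messenger RNA and the highest B cell and dendritic marker sums; the part of these in its levels was not tested. Scaling the libraries to 24 leukocyte genes shared by white blood cell types moved the median of all genes by 1.29 in this comparison. All 5 then rose, where 63.7% of all genes rose and 5.9% fell, with a median of 1.86 beside 1.42 over all genes.

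**Figure D1:**
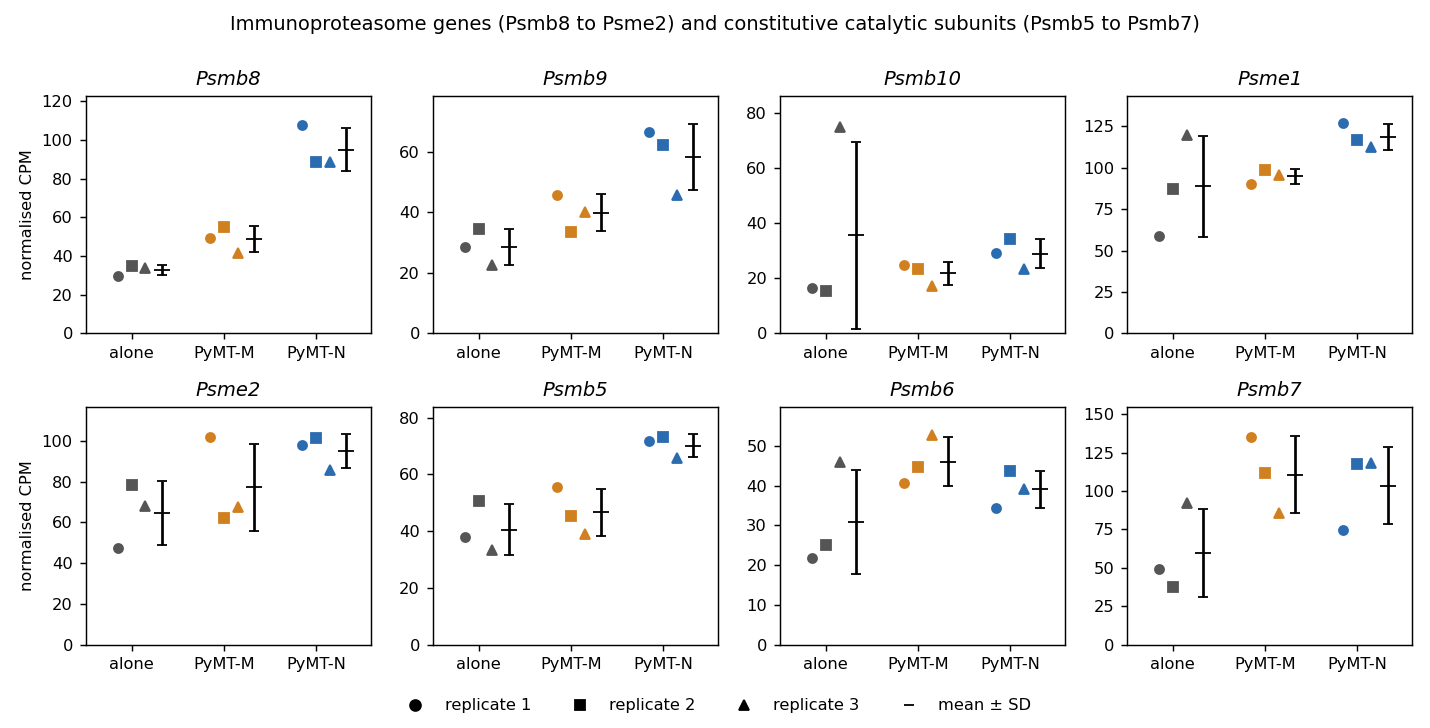
Normalised CPM (vertical axis, from 0) of the 5 immunoproteasome genes and of the constitutive catalytic subunits Psmb5, Psmb6 and Psmb7 in each of the 9 libraries, by group; symbols mark replicates, bars the mean ± SD (n = 3). Psmb8 sits between 88.4 and 108 in the PyMT-N libraries, above all others, while in the alone group Psmb10 reaches 74.7 in replicate 3 against 16.5 and 15.3.

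With PyMT-M cells, 0 of 5 immunoproteasome genes rose or fell against alone, where 28.2% of all tested genes rose and 27.9% fell. At an unadjusted p under 0.05, edgeR gave 1 higher (Psmb8) and 0 lower, and DESeq2 and limma-voom each called 1 higher. Psmb8 stood at 49.2, 55.2 and 41.8 normalised CPM, above every library alone, with a log2 fold change of 0.58 ± 0.24 (SE, edgeR adjusted p = 0.0501). The call was gained without alone replicate 3 or without PyMT-M replicate 3; without alone replicate 3 it was 1 of 5, where 29.0% of all genes rose and 30.7% fell. Psmb9 stood at 45.8, 33.6 and 40.2 with PyMT-M and overlapped the alone group, as did the other members. Psmb10 stood at 24.7, 23.3 and 17, Psme1 at 90.1, 98.5 and 95.8, and Psme2 at 102, 62.2 and 67.6. Log2 fold changes of these 4 ran from -0.52 (Psmb10) to 0.44 (Psmb9), and the median of all 5 was 0.26, beside -0.03 over all genes. Leukocyte scaling moved that all-gene median by 1.63; all 5 genes then rose, Psmb10 among them, where 69.0% of all genes rose and 1.67% fell.

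Compared directly, the co-cultures differed in Psmb8, which was 1.94-fold higher with PyMT-N (log2 fold change 0.96 ± 0.21 SE, edgeR adjusted p = 0.00189). That was 1 of 5 immunoproteasome genes, where 19.1% of all tested genes were higher and 15.5% lower with PyMT-N. The other 4 had log2 fold changes of 0.30 (Psme2), 0.32 (Psme1), 0.39 (Psmb10) and 0.54 (Psmb9) that did not pass the test; all 5 were above 0 under TMM and 3 of 5 under leukocyte scaling. Psmb9 was also called without alone replicate 3 (0.54, adjusted p = 0.0341), which makes 2 of 5, where 23.9% of all genes were higher and 20.8% lower. The Psmb8 call held with each library left out and was lost under leukocyte scaling, at 0.57 (adjusted p = 0.058), where 12.6% of all genes were higher and 26.9% lower and the all-gene median moved by -0.37. Epithelial marker sums were above 2286 CPM in the group with the higher Psmb8 and at most 109 in the other; their part was not tested.

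Ratios within a library do not depend on how libraries are scaled. The log2 ratio of Psmb8 to Psmb5 counts was -0.34, -0.54 and 0.03 alone, -0.17, 0.28 and 0.10 with PyMT-M, and 0.59, 0.28 and 0.44 with PyMT-N. The PyMT-N group lay above the alone group without overlap, by 0.71 (exact two-sided permutation p = 0.1, the smallest that 3 against 3 libraries can give; 0.214 after adjustment over 15 tests). Per kilobase of exon, Psmb8 made up 18.1% ± 3.02 (SD, n = 3) of the Psmb8 and Psmb5 sum alone, 21.9% ± 2.67 in PyMT-M and 26.5% ± 2.10 in PyMT-N libraries. The constitutive subunit thus gave more counts per length in every group. Length here is that of all annotated exons, 3381 bases for Psmb8 and 899 for Psmb5. The longest protein-coding Psmb8 transcript has 1628 bases, by which its share would be larger. Other genes hold 57.1% of the 50-base words of Psmb5. The PyMT-M mean lay between those of the other groups, and PyMT-M libraries overlapped both. An exact p under 0.1 cannot be reached with 3 against 3 libraries, so this test can call no difference of any size.

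The Psmb9 to Psmb6 ratio was 0.38, 0.45 and -1.01 (log2) alone, 0.17, -0.42 and -0.39 with PyMT-M and 0.95, 0.51 and 0.23 with PyMT-N. It separated the co-cultures without overlap (difference 0.77, exact p = 0.1), and overlapped between PyMT-N and alone (0.62, exact p = 0.4). That difference was 0.14 without alone replicate 3. The Psmb10 to Psmb7 ratio was -1.56, -1.29 and -0.30 alone, -2.44, -2.26 and -2.32 with PyMT-M and -1.35, -1.78 and -2.33 with PyMT-N. All PyMT-M libraries lay below the alone group, by -1.29 (exact p = 0.1); here the constitutive Psmb7 was called higher and the inducible Psmb10 was not called.

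Psme3 encodes PA28 gamma, the nuclear relative of the Psme1 and Psme2 activator. Its levels were 49.9, 65.4 and 9.05 normalised CPM alone (12 counts in replicate 3), 130, 138 and 163 with PyMT-M and 67.4, 79.3 and 68.2 with PyMT-N. The log2 ratio of Psme1 to Psme3 was 0.24, 0.42 and 3.67 alone, -0.53, -0.49 and -0.76 with PyMT-M and 0.91, 0.55 and 0.72 with PyMT-N. PyMT-M libraries were below both other groups without overlap, by -2.04 against alone and by 1.32 when PyMT-N is set against PyMT-M (exact p = 0.1 for each, 0.214 adjusted). The ratio of Psme2 to Psme3 had the same order, with differences of -1.94 and 1.33 (exact p = 0.1 for each). Against alone, the size of both differences rests on alone replicate 3: without it the Psme1 difference was -0.92 and the Psme2 difference -1.02. For PyMT-N against alone, both ratios changed sign without that library, from -0.71 to 0.40 for Psme1 and from -0.61 to 0.31 for Psme2.

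**Figure D2:**
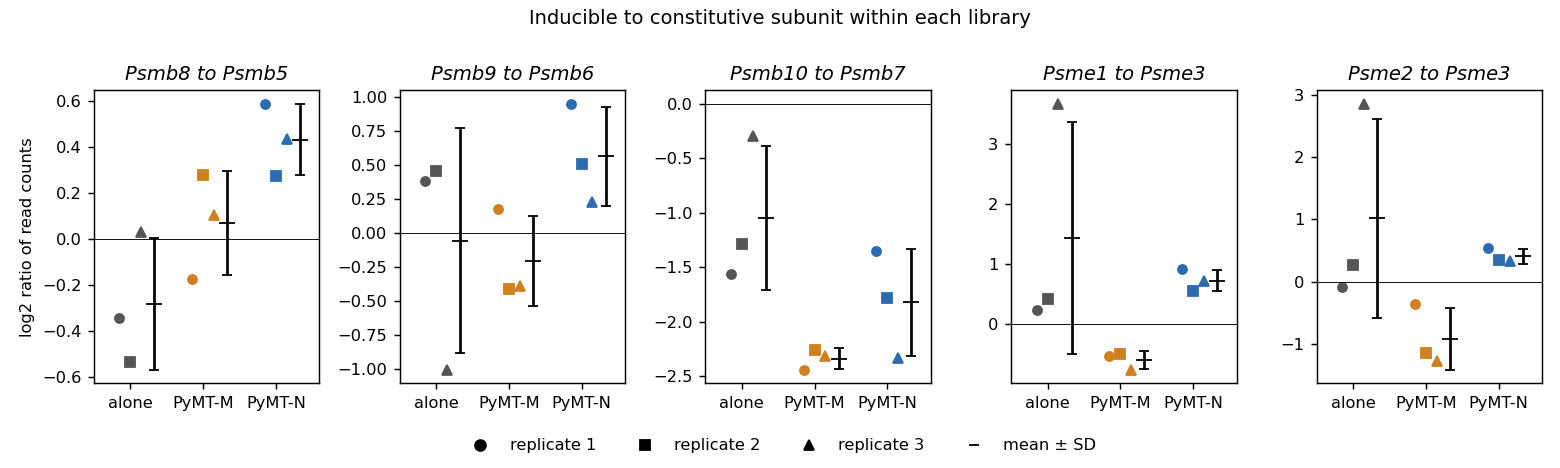
Log2 ratio of read counts of an immunoproteasome gene to its constitutive counterpart within each library (vertical axis), by group; symbols mark replicates, bars the mean ± SD (n = 3). The Psmb8 to Psmb5 ratio lies between 0.28 and 0.59 in the PyMT-N libraries against -0.54 to 0.03 alone, and the Psme1 to Psme3 ratio is -0.76 to -0.49 with PyMT-M, below the other 6 libraries.

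Among the 42 constitutive genes tested, 22 rose and 2 fell with PyMT-N against alone, beside 29.4% and 23.6% of all genes, with a median log2 fold change of 0.75 beside 0.12. By role, 7 of 8 base genes rose, as did 5 of 9 lid, 3 of 7 assembly chaperone, 3 of 7 beta ring and 2 of 7 alpha ring genes. Also counted among the 22 were Psmf1 and Psme2b, the latter a copy of the immunoproteasome gene Psme2 rather than a constitutive subunit. Of the 22, 15 were called with every library left out. The same share over all called genes is not given here, so this is no trait of the members. Psma3, Psmb5, Psmb7, Psmc1, Psmc6, Psmd7 and Psmd9 lost the call in at least 1 such fit. Without alone replicate 3, 24 rose and 1 fell, beside 31.1% and 26.0% of all genes in that fit.

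In the base, Psmc3, a ring ATPase that unfolds substrates, stood at 43.7, 36.2 and 53.6 normalised CPM alone and 81.5, 116 and 90.2 with PyMT-N (log2 fold change 1.14 ± 0.24 SE, edgeR adjusted p = 0.000906). Psmc4 and Psmc5, other ATPases of the ring, rose by 1.12 and 0.88 on the log2 scale, and the large scaffolds Psmd1 and Psmd2 by 0.81 and 0.82. Psmc2 was the 1 base gene not called, at 0.43. In the lid, Psmd3 stood at 18.3, 27.6 and 35.4 alone and 80.6, 68.6 and 72.7 with PyMT-N (1.49 ± 0.28 SE, adjusted p = 0.000383). Psmd14, the enzyme that removes ubiquitin chains, rose by 1.08, and Psmd8, a lid subunit with high counts, by 1.10. All libraries with PyMT-N lay above the alone group for Psmc3, Psmc4, Psmc5, Psmd1, Psmd2, Psmd3, Psmd8 and Psmd14, while those of Psmc2 overlapped it. The share of all genes without overlap is not given here.

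In the barrel, Psmb2 had the largest called change of its ring, with 34.8, 43.3 and 47.5 normalised CPM alone and 76.1, 110 and 96.9 with PyMT-N (log2 fold change 1.19 ± 0.23 SE, edgeR adjusted p = 0.000518). Psma5 did so among alpha subunits, with 38.8, 44.8 and 25.6 alone and 70.0, 84.3 and 90.0 with PyMT-N (1.12 ± 0.23 SE, adjusted p = 0.000979). Neither gene's groups overlapped. Of the catalytic subunits, Psmb5 stood at 37.9, 50.4 and 33.2 alone and 71.8, 73.0 and 65.6 with PyMT-N (0.76 ± 0.24 SE, adjusted p = 0.0157), a call lost without alone replicate 1. Psmb7 stood at 49.0, 37.7 and 92.0 alone and 74.3, 118 and 118 with PyMT-N (0.87 ± 0.31 SE, adjusted p = 0.0286); the groups overlapped, and the call was lost without alone replicate 1 or 2 or PyMT-N replicate 2 or 3. Psmb6 stood at 21.8, 25.0 and 46.0 alone and 34.4, 43.8 and 39.2 with PyMT-N and was not called (0.42 ± 0.29 SE, adjusted p = 0.251), except without alone replicate 3 (0.74, adjusted p = 0.0217). The alpha subunits Psma1 and Psma6 and the beta subunit Psmb1 had log2 fold changes of -0.50, -0.48 and -0.49 that did not pass the test and lay above 0 under leukocyte scaling. Without alone replicate 3 these were -0.03, -0.41 and -0.31.

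Among the chaperones that build the particles, Psmg2 stood at 1.34, 2.24 and 3.02 normalised CPM alone, from 3, 6 and 4 counts, and 7.18, 13.8 and 10.5 with PyMT-N (log2 fold change 2.32 ± 0.56 SE, edgeR adjusted p = 0.00255). Psmf1, the PI31 protein known as an inhibitor of the barrel in vitro, stood at 8.91, 7.10 and 4.53 alone and 24.1, 24.5 and 25.0 with PyMT-N (1.77 ± 0.35 SE, adjusted p = 0.000584). These were the 2 largest rises among the constitutive genes and began from low levels. Psmg2 had under 10 counts in every library alone. It passed the filter through co-culture libraries, so its call could only be a rise. The 2 genes that fell were Psmd13, a lid subunit, at 79.3, 89.3 and 153 alone and 67.2, 63.4 and 66.7 with PyMT-N (-0.67 ± 0.25 SE, adjusted p = 0.0328), and Psme4, the PA200 activator, at 122, 145 and 91.3 alone and 79.5, 78.5 and 87.0 with PyMT-N (-0.57 ± 0.22 SE, adjusted p = 0.0441). Psmd13 lost the call without alone replicate 3 or any PyMT-N library. Psme4 kept it only without alone replicate 3 or PyMT-M replicate 1. Under leukocyte scaling both had the opposite sign, at 0.64 and 0.74. All 42 constitutive genes rose under that scaling, where 63.7% of all genes rose and 5.9% fell, with medians of 2.04 and 1.42.

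With PyMT-M against alone, 23 of 42 constitutive genes rose and 2 fell, beside 28.2% and 27.9% of all genes, with a median of 0.67 beside -0.03. The 2 comparisons with the alone group share its 3 libraries, so their counts are not independent. By role, 5 of 7 chaperones, 5 of 8 base, 4 of 7 alpha ring, 4 of 9 lid and 3 of 7 beta ring genes rose. Of the 23, 18 were called with every library left out, again without the same share over all called genes. Psma2, Psmb7, Psmc3, Psmd9 and Psmg4 lost the call in at least 1 such fit. Without alone replicate 3, 26 rose and 2 fell, beside 29.0% and 30.7% of all genes in that fit. Psma5 stood at 129, 127 and 118 normalised CPM with PyMT-M (log2 fold change 1.73 ± 0.23 SE, edgeR adjusted p = 2.18e-05). Psmc5 stood at 186, 146 and 138 against 56.6, 38.5 and 51.3 alone (1.70 ± 0.23 SE, adjusted p = 2.6e-05). For both, every PyMT-M library was above every library alone by a wide margin.

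Psmf1 stood at 31.4, 30.2 and 38.6 normalised CPM with PyMT-M (log2 fold change 2.21 ± 0.34 SE, edgeR adjusted p = 6.66e-05), and Psmg2 at 19.6, 13 and 14.6 (2.89 ± 0.52 SE, adjusted p = 0.000238). Other chaperones that rose were Psmd5 (1.19), Psmd9 (1.42), Psmg1 (1.55) and Psmg4 (1.90). Psmg4 had 6, 4 and 0 counts in alone replicates 1 to 3 and 26, 26 and 30 with PyMT-M. Psmg1 had 12, 10 and 2 counts in alone replicates 1 to 3. Psmg1, Psmg2 and Psmg4 passed the filter through co-culture libraries. Their calls, counted among the chaperones that rose, could thus only be rises. In the lid, Psmd14 stood at 26.3, 19.4 and 24.9 alone and 60.2, 55.0 and 63.1 with PyMT-M (1.35 ± 0.26 SE, adjusted p = 0.000467). Psme3, the PA28 gamma gene, rose by 1.69 ± 0.35 (SE, adjusted p = 0.000974), and by 1.31 without alone replicate 3, the library with 12 counts. Among catalytic subunits Psmb7 stood at 135, 112 and 85.4 with PyMT-M and overlapped the alone group (0.96 ± 0.31 SE, adjusted p = 0.0152), a call lost without alone replicate 1 or 2 or PyMT-M replicate 1. Psmb5, at 55.5, 45.4 and 38.9, and Psmb6, at 40.6, 44.9 and 52.7, were not called (0.18 and 0.64). The 2 genes that fell were Psmd13, at 58.7, 45.6 and 50.8 with PyMT-M (-1.02 ± 0.25 SE, adjusted p = 0.00298), and the chaperone Psmd10, at 29.0, 23.9 and 22.6 alone and 13.3, 15.3 and 16.2 with PyMT-M (-0.77 ± 0.28 SE, adjusted p = 0.0313). Psmd10 lost the call without alone replicate 1 or 2 or any PyMT-M library. Under leukocyte scaling both had the opposite sign, at 0.66 and 0.90. All 42 constitutive genes rose under that scaling, where 69.0% of all genes rose and 1.67% fell, with medians of 2.36 and 1.60.

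Set directly against each other, the co-cultures differed in 7 of 42 constitutive genes: 1 was higher and 6 were lower with PyMT-N, beside 19.1% and 15.5% of all genes, with a median of -0.19 beside -0.02. Psmd8 was higher, at 263, 355 and 324 normalised CPM with PyMT-N against 180, 171 and 167 with PyMT-M and 133, 156 and 149 alone (log2 fold change 0.86 ± 0.17 SE, edgeR adjusted p = 0.000998; 0.51 and adjusted p = 0.0679 under leukocyte scaling). Psma6, an alpha subunit, was lower, at 74.0, 62.8 and 62.8 against 118, 108 and 119 (-0.79 ± 0.19 SE, adjusted p = 0.00401), as was the ATPase Psmc5, at 74.0, 94.2 and 98.1 against 186, 146 and 138 (-0.82 ± 0.21 SE, adjusted p = 0.00661). The calls of these 3 genes held with each library left out, and their groups did not overlap. Psme3 was lower by -1.0 ± 0.32 (SE, adjusted p = 0.0254), Psmb1 by -0.72 ± 0.21 (adjusted p = 0.0159), Psma5 by -0.61 ± 0.20 (adjusted p = 0.0301) and Psmd7 by -0.60 ± 0.22 (adjusted p = 0.047). Psme3 and Psma5 lost the call with any co-culture library left out, Psmb1 without PyMT-M replicate 1 or 3 or PyMT-N replicate 3, and Psmd7 without any library but alone replicate 3 or PyMT-M replicate 3. The number lower was 2 or 3 without any 1 co-culture library, where 10.5% to 12.2% of all genes were lower. Without alone replicate 3, 5 were higher and 10 lower, beside 23.9% and 20.8% of all genes. Without alone replicate 1 or 2, 1 and 2 were higher, beside 19.3% and 19.5% of all genes. Under leukocyte scaling 0 were higher and 17 lower, beside 12.6% and 26.9% of all genes.

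**Figure D3:**
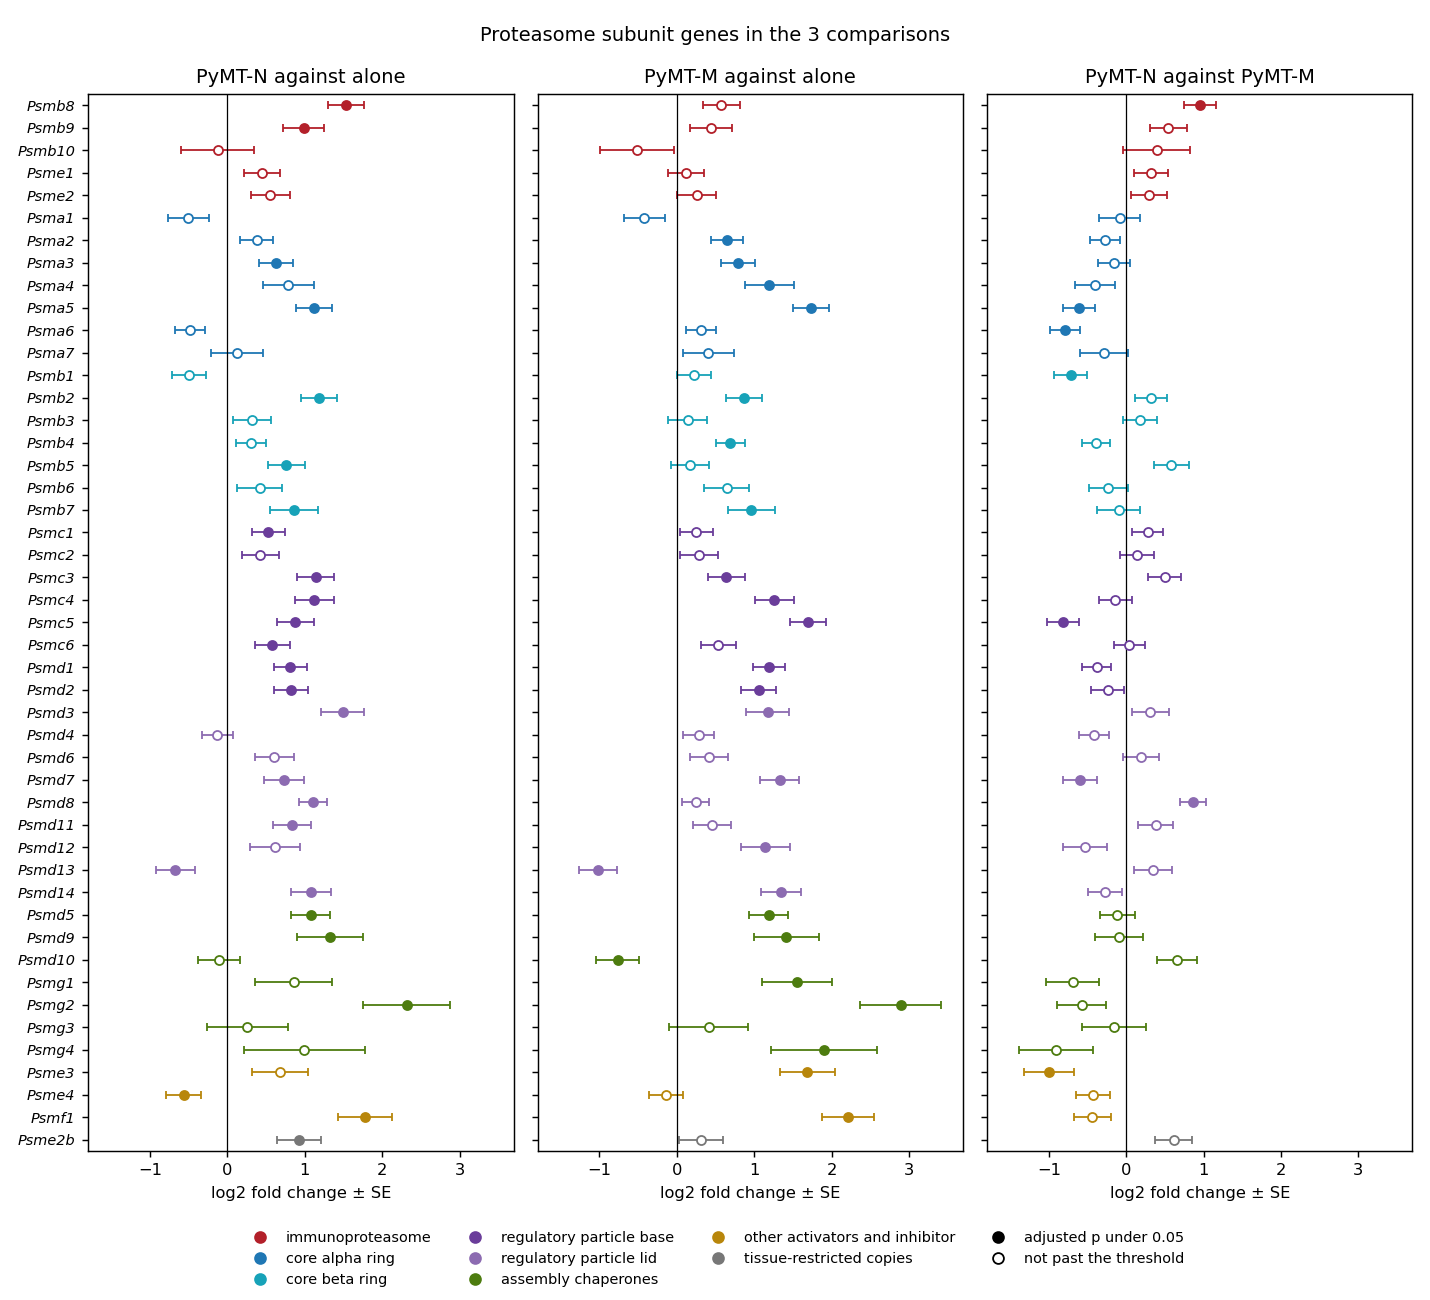
Log2 fold change ± SE (horizontal axis) of the 47 tested genes in the 3 comparisons, coloured by role; filled points have an edgeR adjusted p under 0.05. With PyMT-N against alone 24 points are filled above 0 and 2 below it; Psmd13, Psme4 and Psmd10, the filled points below 0 against alone, change sign under leukocyte scaling.

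Summed over all members, proteasome transcripts took 2451, 2821 and 3218 normalised CPM in alone replicates 1 to 3, 4074, 3871 and 4067 with PyMT-M and 3574, 3960 and 3932 with PyMT-N. Every co-culture library was above every library alone. The 17 base and lid genes accounted for most of that, at 1101 ± 87.1 (SD, n = 3) alone, 1727 ± 73.2 in PyMT-M and 1752 ± 156 in PyMT-N libraries. The 14 ring genes stood at 1190 ± 266, 1482 ± 90.7 and 1274 ± 69.7. Psma1 had the highest mean of the ring genes in every group and went the other way. Its means were 478 ± 237, 355 ± 70.5 and 334 ± 21.8 in that order, with 311, 375 and 749 in alone replicates 1 to 3. The ring sums thus lean on this gene and on alone replicate 3. They cannot show whether the other ring genes rose less than base and lid genes. The immunoproteasome genes held 7.38%, 8.87% and 9.92% of all member counts alone, 7.65%, 7.05% and 6.45% with PyMT-M and 12.0%, 10.2% and 9.05% with PyMT-N. Shares with PyMT-N lay above those with PyMT-M without overlap, and the alone group overlapped both.

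**Figure D4:**
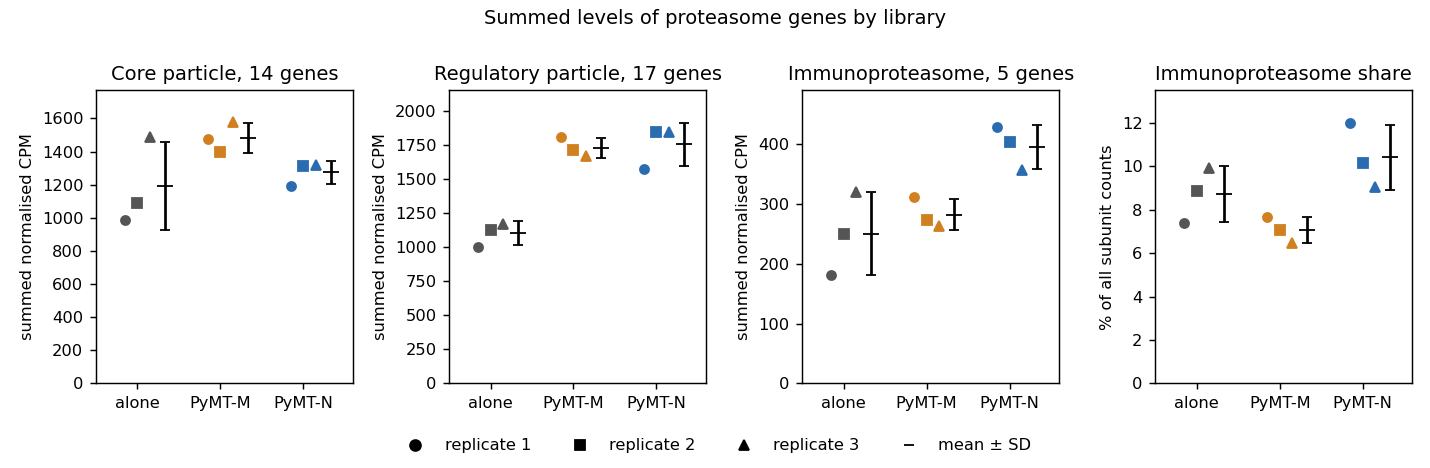
Summed normalised CPM of the 14 ring genes, the 17 regulatory particle genes and the 5 immunoproteasome genes, and the immunoproteasome share of all member counts in percent, in each library (vertical axes, from 0); symbols mark replicates, bars the mean ± SD (n = 3). The immunoproteasome share is 9.05% to 12.0% with PyMT-N and 6.45% to 7.65% with PyMT-M.

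Of 16 other genes of class I peptide processing and its interferon regulators, 10 rose and 1 fell with PyMT-N against alone, with a median of 1.13. With PyMT-M 6 rose and 2 fell (median 0.06), and 10 of 16 were higher and 0 lower with PyMT-N than with PyMT-M (median 0.85), where 29.4%, 28.2% and 19.1% of all genes were higher and 23.6%, 27.9% and 15.5% lower in the same order. Without alone replicate 3 the PyMT-M median was 0.70, with 8 higher and 2 lower, and without alone replicate 2 it was -0.09. Without PyMT-M replicate 3 it was 0.13. Under leukocyte scaling 15 of 16 were higher and 0 lower with PyMT-M (69.0% and 1.67% of all genes), and 7 were higher and 1 lower with PyMT-N than with PyMT-M (12.6% and 26.9%). Irf1, which drives Psmb8 and Psmb9 in interferon responses, stood at 79.8, 75.1 and 96.5 normalised CPM alone, 77.8, 92.6 and 75.9 with PyMT-M and 264, 209 and 237 with PyMT-N. It was thus raised with PyMT-N (log2 fold change 1.51, edgeR adjusted p = 1.34e-05) and not called with PyMT-M (-0.01, adjusted p = 0.968). Nlrc5, the class I transactivator, stood at 21.8, 19.4 and 55.8 alone, 66.9, 81.5 and 63.4 with PyMT-M and 212, 243 and 213 with PyMT-N (2.90 and 1.25 against alone, adjusted p = 1.71e-06 and 0.00339).

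Stat2 and Irf9, transcription factors of the type I interferon response, rose with PyMT-N by 3.20 and 2.17 on the log2 scale and with PyMT-M by 1.89 and 1.22. Tapbp, the tapasin that loads class I molecules, rose with PyMT-N by 1.74 and was not called with PyMT-M (0.05). Tap1, the peptide transporter subunit that shares a promoter region with Psmb9, stood at 88.7, 71.7 and 255 alone, 142, 136 and 139 with PyMT-M and 276, 208 and 228 with PyMT-N. As for Psmb10, alone replicate 3 was the high library of its group, and the gene was not called in any comparison (0.84, 0.07 and 0.77; adjusted p = 0.0617, 0.888 and 0.0971). Without that library Tap1 was higher than alone with PyMT-N (1.57, edgeR adjusted p = 3.55e-07) and with PyMT-M (0.81, adjusted p = 0.000956), and higher with PyMT-N than with PyMT-M (0.77, adjusted p = 0.000272). The class I genes H2-K1 and H2-D1 went apart with PyMT-N (0.77 and -1.55 against alone). Both fell with PyMT-M (-0.82 and -1.43), and each of these was called. Under leukocyte scaling the PyMT-M values of both were above 0 (0.86 and 0.25), and the PyMT-N value of H2-D1 was -0.26 and not called (edgeR adjusted p = 0.172). Such MHC genes have near-identical copies that counting can split. The part of this in their values was not tested. Canx, the chaperone calnexin, rose in both (1.31 and 1.24).

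Of 25 tested genes for proteasome partners and regulators, 6 rose and 3 fell with PyMT-N against alone (median 0.23), 7 rose and 10 fell with PyMT-M (median 0.18), and 6 were higher and 2 lower with PyMT-N than with PyMT-M (median 0.08). Of all genes 29.4%, 28.2% and 19.1% were higher and 23.6%, 27.9% and 15.5% lower in the same order. Leaving out each library in turn gave 5 to 7 higher and 3 to 4 lower with PyMT-N, 4 to 6 and 7 to 10 with PyMT-M, and 4 to 6 and 0 to 3 between the co-cultures. The PyMT-M median was 0.06 without alone replicate 3, 0.31 without alone replicate 1 and 0.41 without alone replicate 2. Under leukocyte scaling 21 of 25 were higher and 0 lower with PyMT-M (69.0% and 1.67% of all genes), 22 and 0 with PyMT-N (63.7% and 5.9%), and 2 and 3 between the co-cultures (12.6% and 26.9%). Nfe2l1, the factor that raises proteasome genes when the proteasome is inhibited, stood at 59.3, 69.9 and 36.2 normalised CPM alone, 63, 75.2 and 72.7 with PyMT-M and 128, 125 and 143 with PyMT-N (log2 fold change 1.22 against alone, edgeR adjusted p = 0.000426; 0.91 against PyMT-M, adjusted p = 0.00383). The PyMT-M and alone groups overlapped and were not called (0.31, adjusted p = 0.277). Pomp, the chaperone of barrel maturation, was called with PyMT-M (0.66, adjusted p = 0.0452) and not with PyMT-N (0.36, adjusted p = 0.274), a difference that itself was not called (-0.29, adjusted p = 0.366). Pomp lost the PyMT-M call without any 1 library except alone replicate 2. Ngly1, an enzyme that processes Nfe2l1, fell in both co-cultures (-1.55 and -1.64), as did Ecpas, a proteasome-binding scaffold (-1.85 and -1.37). Rad23b, a shuttle for ubiquitin chains, rose in both (1.42 and 1.58), as did Ubqln4, another shuttle (1.11 and 1.82), and Ube3c, a ubiquitin ligase of the proteasome (1.49 and 1.25). Nfe2l2 and Uba1 were lower with PyMT-M than alone (-1.30 and -0.54) and higher with PyMT-N than with PyMT-M (1.16 and 0.88). Uba1 lost the call of PyMT-M against alone without alone replicate 1 or 2 or PyMT-M replicate 3. Under leukocyte scaling the PyMT-M values against alone of Ngly1, Ecpas, Nfe2l2 and Uba1 were above 0 (0.029, 0.30, 0.38 and 1.13). The same scaling ended the PyMT-N calls of Ngly1 (-0.26, edgeR adjusted p = 0.32) and Ecpas (-0.56, adjusted p = 0.0881), and the calls between the co-cultures of Nfe2l1 (0.53, adjusted p = 0.1) and Uba1 (0.50, adjusted p = 0.0521).

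Counts of some members are uncertain, since the sources used here do not say how shared, overlapping and antisense reads were counted. Psme2b, a copy of Psme2 (ENSMUSG00000078153, chr11:48945354-48946190, minus strand), rose with PyMT-N, from 18.7, 17.9 and 21.1 normalised CPM alone to 41.3, 33.9 and 33.6 (log2 fold change 0.93 ± 0.28 SE, edgeR adjusted p = 0.0118). It shares 68.7% of its 50-base words with Psme2, and 59.3% of those of Psme2 occur in Psme2b. With both counted as 1 gene, an alternative chosen after the data were seen, the log2 fold change with PyMT-N was 0.65 (adjusted p = 0.0261). Psmb5, Psmb3 and Psma5 share 57.1%, 55.8% and 54.5% of such words with other genes. Psmb8 and Psmb10 overlap the antisense transcripts Gm20496 and Gm16156, and Psmb9 overlaps Tap1 by 212 bases.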

How the data were processed

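RNA of 9 neutrophil libraries entered library preparation at 150 pg each (Qiagen QIAseq FX single-cell chemistry, per the labels' protocols). The deposited values are raw read counts per Ensembl gene; the authors aligned reads with STAR to GRCm38 (mm10), per the submitters' processing notes. How reads were counted, on which annotation and with which strand option, the sources used here do not say. GENCODE M21 (GRCm38) gave a symbol for 54495 identifiers and none for 37. The edgeR 4.0.16 filter filterByExpr, with minimums of 10 (count) and 15 (total), left 12012 genes, which were scaled by TMM and fitted over all 9 libraries with 1 mean per group (R 4.3.3, robust quasi-likelihood, legacy estimation off). Standard errors are the absolute log2 fold change over √F. Ratios used counts plus 0.5 and exact permutation, adjusted over 15 tests. Shared sequence was counted in words of 50 bases of the longest protein-coding transcript. The floor of 3 counts covers counting error only. Replicates differed beyond sampling noise (chi-square per degree of freedom 6.08 or more), so none was merged. The code was tested on simulated data.

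Members and lists were chosen with earlier results of these data known. Named were the 5 immunoproteasome genes, the 3 constitutive catalytic subunits, per role and comparison the called members of largest change in each direction, members that were not tested, up to 4 pathway genes of smallest p per list and comparison, and Nfe2l1, Pomp, Tap1, Irf1 and Nlrc5; some pathway genes that this rule names are counted in their lists and not reported here; other called members are named for their role and Psma1, Psma6, Psmb1 and Psmc2 for their place in a ring or base, after their values were seen. Alternatives were other size factors (relative log expression, upper quartile, library totals, 24 pan-leukocyte genes), no filter or at least 50 counts in 3 libraries, DESeq2 1.42.0, limma-voom (limma 3.58.1) with sample weights, legacy estimation, the compared groups alone, a replicate block, leaving out each library, and a log2 fold minimum of 1.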

Additional observations from a re-analysis of the deposited data

How the results depend on the processing

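Against the stated counts of called members, these alternatives moved them. For PyMT-N against alone, immunoproteasome genes that rose (2) numbered 4 with library totals, 5 with leukocyte scaling and 1 at a log2 fold change of at least 1; constitutive genes that rose (22) numbered 42 with leukocyte scaling and 11 at that fold change. Constitutive genes that fell (2) numbered 1 with relative log expression, 4 at 50 counts in 3 libraries, and 0 with library totals, leukocyte scaling, no filter, DESeq2, the compared groups alone or the fold change. For PyMT-M against alone, immunoproteasome genes that rose (0) numbered 1 with relative log expression, upper quartile, DESeq2, limma-voom, legacy estimation or the compared groups alone, 4 with library totals and 5 with leukocyte scaling; constitutive genes that rose (23) numbered 37 with library totals and 42 with leukocyte scaling. Constitutive genes that fell (2) numbered 0 with both of these scalings and 1 with relative log expression, upper quartile, no filter, DESeq2, the compared groups alone or the fold change. For PyMT-N against PyMT-M, higher immunoproteasome genes (1) numbered 0 with leukocyte scaling or the fold change and 2 with the compared groups alone; higher constitutive genes (1) numbered 5 with limma-voom or the compared groups alone and 0 with leukocyte scaling or the fold change; lower ones (6) numbered 10 with library totals or the compared groups alone, 17 with leukocyte scaling, 3 with legacy estimation and 1 at the fold change. The all-gene median moved by 0.29, 0.47 and -0.21 with library totals in that order and by under 0.1 with the other TMM alternatives except leukocyte scaling. Among called genes named above, signs turned under leukocyte scaling for Psme4 (0.74) and Psmd13 (0.64) with PyMT-N. With PyMT-M they turned for Psmd10 (0.90), Psmd13 (0.66), Uba1 (1.13), Nfe2l2 (0.38), Ngly1 (0.029), Ecpas (0.30), H2-K1 (0.86) and H2-D1 (0.25). All 25 tested partners and regulators, unnamed ones included, were then above 0 with PyMT-M. The cause was not tested. Leaving out each library in turn gave 2 to 5 immunoproteasome and 16 to 24 constitutive genes that rose and 0 to 2 constitutive genes that fell with PyMT-N; 0 to 1, 19 to 26 and 1 to 2 with PyMT-M; and 1 to 2 and 1 to 5 higher and 2 to 10 lower between the co-cultures. No immunoproteasome gene was lower under any of these settings. Alone replicate 3, with the fewest counts, set the lowest precision.

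With the replicate block, 2 immunoproteasome and 21 constitutive genes rose and 1 fell with PyMT-N against alone, and 0 and 22 rose and 1 fell with PyMT-M; between the co-cultures 1 of each was higher and 5 constitutive genes were lower. Library names of a replicate carry the same number in every group, and the sources used here do not say whether that marks shared mice or cells. Correlations of deviations between same-numbered libraries ran from -0.08 to 0.03. With so few libraries per group they cannot show whether libraries were paired, and the main fit did not take the numbers as pairs.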
